A study of Mus musculus with 12 samples.

Results

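Cytokines of the interleukin-6 family, among them LIF and OSM, bind receptor complexes that contain gp130 and activate Janus kinases (JAK), which phosphorylate STAT transcription factors. STAT proteins in turn induce some proteins of the CIS and SOCS family, so that the signal limits itself. Proteins of this family bind activated receptors or kinases through an SH2 domain and recruit a ubiquitin ligase through their SOCS box. Pias3, a SUMO ligase that binds STAT3, and Ptpn11, which encodes the phosphatase SHP2, act on the same pathway, and in heart muscle SOCS3 is known as a brake on gp130 signaling.

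The genes described here are Cish, Socs1, Socs2, Socs3, Socs4, Socs5, Socs6, Socs7, Pias3 and Ptpn11, picked by gene symbol from the table of normalized counts. They are 10 of 22915 genes listed, and all 10 are protein-coding. The study asked how cardiomyocytes respond when the LIF receptor (LIFR), the OSM receptor (OSMR) or both are engaged. Primary cardiomyocytes of adult male C57/Bl6 mice, 12 weeks old, were kept in serum-free medium under normoxia and exposed for 24 h to murine LIF (mLIF, acting through LIFR), murine OSM (mOSM, acting through OSMR) or hlOSM. The latter is murine OSM whose AB loop was replaced by the human one, so that it binds OSMR and LIFR. Control cells received the same volume of PBS. The sample labels give 25 ng/mL for each cytokine, and the methods of the study give another dose. There were 3 libraries per condition, 12 in all. The methods of the study speak of biological replicates in general and do not say whether these libraries came from separate cell preparations, so p-values measure only the spread between these libraries, which may be technical.

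Values are normalized counts that the authors rounded to whole numbers. They added up to between 2745748 and 2911891 per library. The number of reads behind a value is not known from them. Tests used limma, fitted to log2(normalized count + 1), over the 13184 genes that reached 10 in at least 3 libraries, and genes with a Benjamini-Hochberg adjusted p under 0.05 over all tested genes were taken as DEG. Replicate numbers differed by nearly the same factor from gene to gene. Median-ratio factors of the libraries were 1.02 to 1.04 for number 3 and 0.995 to 0.997 for number 1. Averaged over the conditions, the log2 difference between numbers 3 and 1 had an SD of 0.0019 over 6626 genes, while between PBS replicates 3 and 1 alone it was 0.173. How this arose is not given in the sources used here. The fit counts 8 residual degrees of freedom, or 6 when the replicate number is a block, so its p-values may be too small. Of the 10 genes, 9 entered the test. Socs1 did not reach the minimum.

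The label of the cells was compared with marker genes. All 8 cardiomyocyte genes examined were present, led by Ttn, the giant spring protein of the sarcomere, with normalized counts between 21576 and 33150. The summed counts of these 8 genes were 47922, 47572 and 49402 in the PBS libraries and 43056, 41237 and 41456 with mLIF. The mOSM libraries summed to 34397, 33380 and 37353, and the hlOSM libraries to 34186, 36611 and 35671. Against PBS, mLIF lowered 6 of the 8 genes, and each OSM form lowered 7, where 4.44%, 15.8% (mOSM) and 19.8% (hlOSM) of all tested genes fell. When the replicate number was a block, mLIF lowered 4, the adjusted p being 0.067 for Ryr2 and 0.0575 for Pln. In bulk RNA, fewer cells of a type and less RNA per cell cannot be told apart.

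Transcripts of other cell types were also present. The summed counts of 8 fibroblast genes, led by Pdgfra with PBS and mLIF and by Col3a1 with both OSM forms, were 2297, 2296 and 2526 with PBS, 2189, 2251 and 2110 after mLIF, 2459, 2461 and 2885 after mOSM, and 2499, 2307 and 2540 after hlOSM. For 6 endothelial genes, led by Kdr, the sums were 1079, 1112 and 1055 with PBS, 1093, 1049 and 1096 after mLIF, 1271, 1355 and 1472 after mOSM, and 1365, 1279 and 1369 after hlOSM. These endothelial sums were higher in every mOSM and hlOSM library than in any PBS or mLIF library. For 7 macrophage and leukocyte genes, led on average by Lyz2, the sums were 304, 326 and 328 with PBS, 305, 285 and 320 after mLIF, 348, 385 and 364 after mOSM, and 355, 322 and 392 after hlOSM. Cd14, a monocyte and macrophage receptor, lay between 1 and 5 in all libraries. For 5 genes of smooth muscle and pericytes, led by Cspg4, the sums were 840, 884 and 1033 with PBS, 836, 793 and 822 after mLIF, 669, 606 and 633 after mOSM, and 565, 587 and 575 after hlOSM. By limma, the fibroblast genes that rose and fell against PBS were 0 and 1 for mLIF, 2 and 3 for mOSM and 3 and 5 for hlOSM. For the endothelial genes they were 0 and 1, 3 and 0, and 3 and 0 in the same order. Of 6 tested macrophage and leukocyte genes they were 1 and 0, 1 and 1, and 1 and 1, the gene that rose being Cd68. Of the smooth muscle and pericyte genes 0 rose and 0, 4 and 5 fell. Past the threshold only without the block were Col1a2 for mLIF (adjusted p 0.0755 with it), Itgam for mOSM (0.0622), and Lum (0.0748) and Tek (0.0647) for hlOSM. Over all tested genes, 5.47% rose and 4.44% fell for mLIF, 15.4% and 15.8% for mOSM, and 18.2% and 19.8% for hlOSM, and beside these shares a count of 1 is no result about a list. The part of these cell types in the results below was not tested.

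Socs3, the feedback inhibitor that binds gp130 and JAK kinases, was the gene of the group that changed in every comparison with PBS. It lies at chr11:117966079-117970047 on the minus strand (mm10). Its normalized counts were 199, 209 and 168 in the PBS libraries and 369, 363 and 425 with mLIF. The mOSM libraries had 763, 809 and 875, and the hlOSM libraries 892, 804 and 899. The conditions PBS, mLIF and mOSM did not overlap, while the ranges of mOSM and hlOSM did. Means were 192 ± 21.4 (SD, n = 3), 385.7 ± 34.2, 815.7 ± 56.3 and 865 ± 52.9 in the order PBS, mLIF, mOSM and hlOSM.

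Against PBS, mLIF raised Socs3 by 1.00 on the log2 scale (SE 0.08, 95% interval 0.84 to 1.17, adjusted p 1.02e-07). It was the single DEG among the 9 tested genes. Over all tested genes, 5.47% rose and 4.44% fell with mLIF, and 3.39% and 2.56% when the replicate number was a block. mOSM raised Socs3 by 2.09 (95% interval 1.92 to 2.25, adjusted p 2.06e-14), a 4.24-fold change. Again 1 of the 9 genes rose and 0 fell, beside 15.4% and 15.8% of all tested genes. The unadjusted p was under 0.05 for 1 gene here, and for 3 in the mLIF comparison. hlOSM raised Socs3 by 2.17 (95% interval 2.01 to 2.33, adjusted p 8.80e-15), a 4.50-fold change. Here 1 of the 9 genes rose and 3 fell, beside 18.2% and 19.8% of all tested genes. Ranked by log2 fold change among the 13184 tested genes, Socs3 was at position 92 in the mLIF, 94 in the mOSM and 88 in the hlOSM comparison, so that many other genes rose more. The 3 comparisons share the PBS libraries and are given side by side for that reason.

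**Figure D1:**
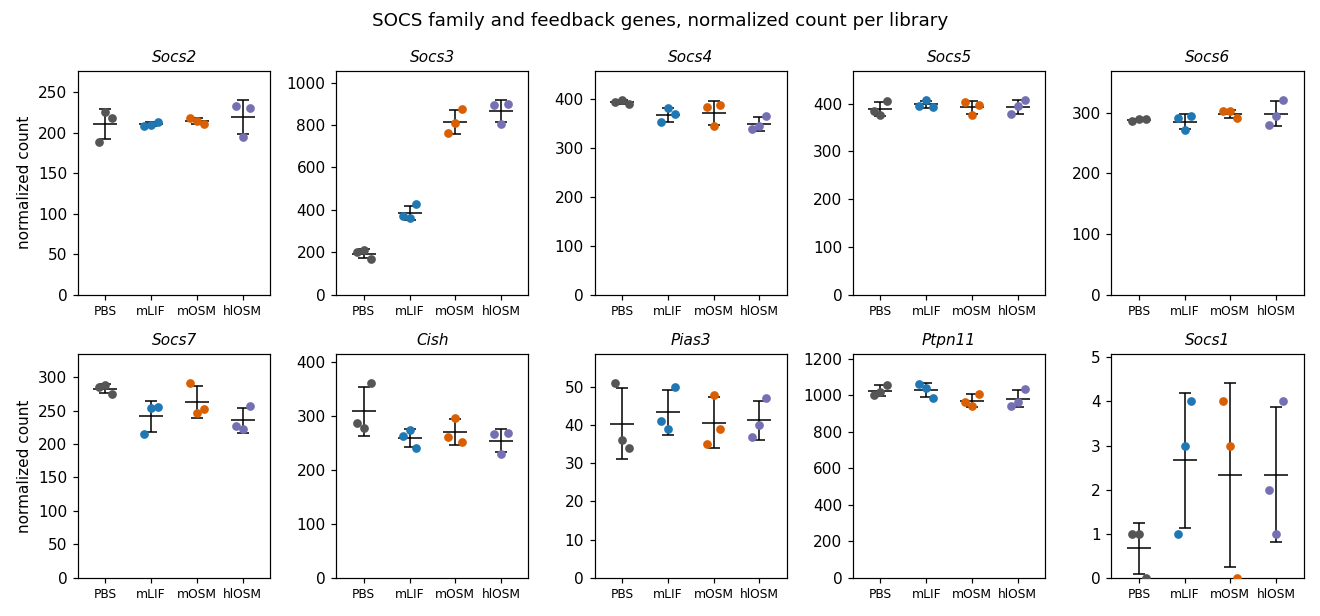
Normalized counts (vertical axes, each from 0) of the 10 genes in the 4 conditions (horizontal axes). Points are single libraries, and bars show the mean and SD of 3 libraries. Socs3 rises from at most 209 with PBS to at least 763 with mOSM and 804 with hlOSM, while Socs1 does not exceed 4.

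The cytokines were also compared directly. Socs3 was higher with mOSM than with mLIF by 1.08 on the log2 scale (95% interval 0.92 to 1.24, limma adjusted p 2.09e-09). It was 1 of 9 genes higher, with 0 lower, where 6.05% of all tested genes were higher and 5.76% lower. With hlOSM it was higher than with mLIF by 1.17 (95% interval 1.00 to 1.33, adjusted p 5.14e-10), again 1 of 9 genes higher and 0 lower, beside 7.42% and 9.22%. The murine and the human-like OSM differ in the AB loop. Between hlOSM and mOSM the difference of Socs3 was 0.09, with a 95% interval from −0.08 to 0.25 (adjusted p 0.877). By limma, 0 of the 9 genes differed between these OSM forms, and the unadjusted p was under 0.05 for 0 of them, while 0.106% of all tested genes, or 14, differed, and 2 genes when the replicate number was a block. The interval leaves room for a small difference in either direction.

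Because mLIF engages LIFR, mOSM engages OSMR and hlOSM binds both, the 4 conditions allow a test of whether the step from mOSM to hlOSM was as large as that from PBS to mLIF. For Socs3 it was smaller by 0.92 on the log2 scale (interaction −0.92, SE 0.11, 95% interval −1.15 to −0.69, limma adjusted p 0.00024). This was 1 of the 9 genes, and 0.167% of all tested genes, or 22, passed the same test, and 14 genes when the replicate number was a block. The result depended on the scale. On normalized counts without the logarithm, an analysis chosen after the data were seen, mLIF added 193.7, mOSM 623.7 and hlOSM 673 to the PBS mean of Socs3. The value for hlOSM fell short of the summed increases of 817.3, and the interaction was −144.3 ± 50.3 (SE from the spread within each condition), with an adjusted p of 0.231 in the same limma design. Without the mean-variance trend the adjusted p on the log2 scale was 0.0981. A change on the log2 scale counts multiples of the starting level, and a change in normalized counts counts the amount added. No condition combined mOSM with mLIF. Whether hlOSM engages LIFR as strongly as mLIF does is not known from these data. The comparison thus describes these ligands and does not show whether the effects of LIFR and OSMR add.

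Cish encodes CIS, the family member best known as a target of STAT5, and it did not follow Socs3. It lies at chr9:107296026-107302784 on the plus strand. Its normalized counts were 286, 277 and 360 with PBS, 262, 273 and 240 after mLIF, 261, 296 and 252 after mOSM, and 266, 229 and 267 after hlOSM. The mLIF and hlOSM libraries all lay below the lowest PBS library, by a small margin, and the mOSM range overlapped PBS. With hlOSM Cish fell by 0.27 on the log2 scale (SE 0.09, 95% interval −0.46 to −0.08, limma adjusted p 0.024). In the mLIF comparison its change was −0.24 (adjusted p 0.0938), and in the mOSM comparison −0.18 (adjusted p 0.136). With each library left out in turn, these changes ran from −0.31 to −0.13 for mLIF and from −0.25 to −0.07 for mOSM. Without PBS replicate 3, the highest of the control libraries, the change with hlOSM was −0.15 with an adjusted p of 0.195, and without hlOSM replicate 2 it was −0.20 with an adjusted p of 0.129. Without the mean-variance trend the adjusted p was 0.0894. On the opposite strand the antisense gene Gm17041 and the pseudogene Gm17040 cover 11.5% of the exonic bases of Cish. Gm17041 had normalized counts between 4 and 10 and Gm17040 between 0 and 4. The library kit keeps the strand, but whether counting used it is not given in the sources used here.

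Socs7, a family member known to bind insulin receptor substrates, fell with hlOSM as well. Its normalized counts were 286, 288 and 275 with PBS, 215, 254 and 256 after mLIF, 291, 247 and 252 after mOSM, and 227, 222 and 257 after hlOSM. All mLIF and hlOSM libraries lay below the PBS libraries, and mOSM replicate 1 lay above them. The change with hlOSM was −0.27 (SE 0.08, 95% interval −0.44 to −0.10, limma adjusted p 0.0122). For mLIF it was −0.23 (adjusted p 0.0727) and for mOSM −0.11 (adjusted p 0.342). With each library left out in turn, these changes ran from −0.27 to −0.15 for mLIF and from −0.18 to −0.06 for mOSM. Without hlOSM replicate 2 the adjusted p for hlOSM was 0.0578.

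Socs4, known as a negative regulator of the EGF receptor, was the third gene that fell with hlOSM. Its normalized counts were 394, 398 and 389 with PBS, 353, 381 and 370 after mLIF, 384, 344 and 387 after mOSM, and 339, 344 and 366 after hlOSM. Every library of the cytokine conditions lay below every PBS library. In the hlOSM comparison the change was −0.17 (SE 0.06, 95% interval −0.30 to −0.04, limma adjusted p 0.0324), and when the replicate number was a block the adjusted p was 0.0656. The call was also lost when any single PBS library, hlOSM replicate 1 or hlOSM replicate 2 was left out, with adjusted p between 0.0544 and 0.108. It was lost without the filter (adjusted p 0.0504) and without the trend (adjusted p 0.0617) as well. For mLIF the change was −0.10 (adjusted p 0.33) and for mOSM −0.08 (adjusted p 0.321). With each library left out in turn, these changes ran from −0.12 to −0.07 for mLIF and from −0.11 to −0.03 for mOSM. Between hlOSM and mOSM the changes of Cish, Socs7 and Socs4 were −0.09, −0.16 and −0.09, with adjusted p of 0.898, 0.681 and 0.802. A difference between the OSM forms was thus not shown for these genes.

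The other SOCS genes that entered the test moved by 0.06 or less on the log2 scale against PBS. Socs2, a regulator of growth hormone signaling, had normalized counts of 189, 225 and 218 with PBS, 208, 210 and 213 after mLIF, 218, 214 and 211 after mOSM, and 233, 195 and 230 after hlOSM. Its conditions overlapped, and its change with hlOSM was 0.06 (95% interval −0.11 to 0.22, limma adjusted p 0.603). Socs5 ranged from 377 to 407 over all 12 libraries, and its conditions overlapped. Socs6 had 286, 290 and 289 with PBS, 291, 271 and 294 after mLIF, 302, 302 and 291 after mOSM, and 280, 294 and 321 after hlOSM. Its mOSM libraries all lay above PBS, by 1 count at the nearest, with a change of 0.05 (limma adjusted p 0.606). For Socs5 the change with hlOSM was 0.02 (95% interval −0.10 to 0.14) and for Socs6 0.05 (95% interval −0.09 to 0.18).

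Socs1, the family member that inhibits JAK kinases directly and is a known target of interferon signaling, was close to the floor of the table. It was listed at 1, 1 and 0 with PBS, 1, 3 and 4 after mLIF, 4, 3 and 0 after mOSM, and 2, 1 and 4 after hlOSM. All conditions overlapped. No change was tested for it.

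Pias3 had normalized counts of 51, 36 and 34 with PBS, 41, 39 and 50 after mLIF, 35, 48 and 39 after mOSM, and 37, 40 and 47 after hlOSM. At this low level the interval was wide, from −0.30 to 0.40 around a change of 0.05 with hlOSM. Ptpn11 had 1003, 1015 and 1056 with PBS, 1060, 1037 and 987 after mLIF, 965, 940 and 1006 after mOSM, and 942, 965 and 1034 after hlOSM. SHP2, its product, is recruited to the same gp130 tyrosine that SOCS3 binds. The change of Ptpn11 was 0.00 with mLIF, −0.08 with mOSM (95% interval −0.19 to 0.03) and −0.06 with hlOSM (95% interval −0.17 to 0.04), and none passed the threshold.

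**Figure D2:**
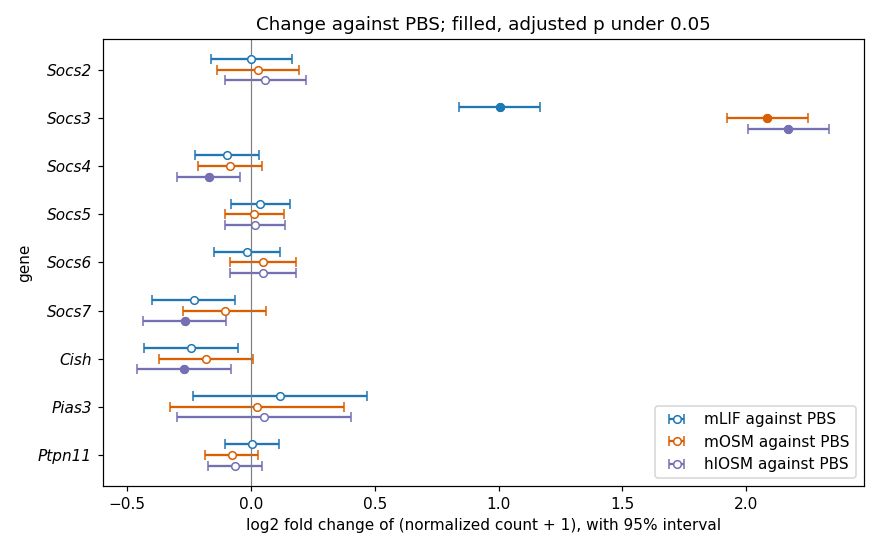
Log2 fold change of (normalized count + 1) against PBS (horizontal axis) for the 9 tested genes (vertical axis) with mLIF, mOSM and hlOSM. Bars are 95% intervals from limma, and filled points have an adjusted p under 0.05. Socs3 stands at 1.00, 2.09 and 2.17, and the filled points below 0 are Socs4, Socs7 and Cish with hlOSM.

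Levels of different genes were compared after division by exonic length in kb, from the union of annotated exons. With PBS, Ptpn11 was highest at 137 ± 3.71 (SD, n = 3) normalized counts per kb. Socs3 followed at 66.4 ± 7.39, Socs5 at 60.6 ± 2.36 and Socs4 at 57.2 ± 0.656, and the ranges of Socs3 and Socs5 overlapped. Cish stood at 47.9 ± 7.10, Socs7 at 39.0 ± 0.964, Socs6 at 25.4 ± 0.183, Socs2 at 22.1 ± 2.00, Pias3 at 10.3 ± 2.37 and Socs1 at 0.229 ± 0.199. With mLIF, the ranges of Socs3 (133 ± 11.8) and Ptpn11 (137 ± 4.98) overlapped. With mOSM and hlOSM the order changed at the top. Socs3 reached 282 ± 19.5 and 299 ± 18.3 per kb, above Ptpn11 at 130 ± 4.45 and 131 ± 6.39. Among the 8 genes of the CIS and SOCS family, Socs3 made up 20.8% ± 2.35 (SD, n = 3) of the summed level per kb with PBS. This share was 35.9% ± 2.12 after mLIF, 53.7% ± 2.24 after mOSM and 56.1% ± 1.00 after hlOSM. The start and end of Socs7 in the reference annotation differ from those in the table, so its length may not be the one used for counting. For Cish the union of exons was 6.42 kb and filled most of chr9:107296026-107302784. Such a union can be longer than any single transcript and then lowers the level per kb. The order of the genes and the share of Socs3 therefore depend on this choice of length.

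STAT dimers bind palindromic elements with the half-sites TTC and GAA. The element TTCNNNGAA, which reads the same on both strands, and its form with 4 bases between the half-sites were searched in RefSeq promoters (GRCm38.p6), from 250 bases before to 50 bases after the RefSeq start of each gene. Of 32851 promoters, 8.30% held the former and 6.95% the latter. Promoters of 6 of the 10 genes were matched, those of Socs1, Socs3, Socs4, Cish, Pias3 and Ptpn11. The former element was present for 2 genes, Socs3 and Cish, and the latter for 0. In Socs3 a match, TTCTTAGAA, began 154 bases before the RefSeq start, at chr11:117969512-117969520. That start lies 681 bases inside Socs3 as the table places it, and the match 527 bases inside. Cish had a pair, TTCCTGGAA at chr9:107296659-107296667 and TTCTTGGAA at chr9:107296670-107296678, the first of them at the RefSeq start and 633 bases inside Cish as the table places it, and 0.457% of promoters held the element more than once. Both sequences are shown because Socs3 rose and Cish fell with hlOSM, and capitals mark the elements. The call for Cish was lost without PBS replicate 3, without hlOSM replicate 2 and without the mean-variance trend. The Socs3 stretch is chr11:117969367-117969616 on the minus strand and the Cish stretch chr9:107296654-107296683 on the plus strand. A match describes these letters and is not evidence of binding.
Socs3: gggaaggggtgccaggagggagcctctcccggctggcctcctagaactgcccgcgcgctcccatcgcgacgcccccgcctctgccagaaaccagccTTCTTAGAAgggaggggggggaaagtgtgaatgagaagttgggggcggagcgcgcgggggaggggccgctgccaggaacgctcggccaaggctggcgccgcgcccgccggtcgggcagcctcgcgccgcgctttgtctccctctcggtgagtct
Cish: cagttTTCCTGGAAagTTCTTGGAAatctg

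The genes whose pattern over the 12 libraries was most like that of Socs3 were Gcnt2, Selp, Slc35g2, Cpne8 and Il4ra. The measure was the root-mean-square difference of log2 values, each gene centred on its mean, among 8662 genes with a mean of at least 50. It was 0.203 for Gcnt2, 0.212 for Selp, 0.213 for Slc35g2, 0.216 for Cpne8 and 0.229 for Il4ra. Selp, which encodes P-selectin, had means of 35.3 ± 1.53 (SD, n = 3) with PBS, 86.7 ± 8.50 after mLIF, 210 ± 37.0 after mOSM and 196.7 ± 6.03 after hlOSM. For Socs2, which hardly varied, the nearest genes were Magoh (0.0435), Senp2 (0.0453), Otud6b (0.0511), Pelo (0.0521) and Synj1 (0.0568).

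Genes that act with the feedback inhibitors were counted by function, and each count is to be read beside the shares of all tested genes that rose and fell, which were 5.47% and 4.44% for mLIF, 15.4% and 15.8% for mOSM, and 18.2% and 19.8% for hlOSM. The lists here and in the paragraphs below were chosen with earlier results of these data known, so their counts are descriptions. Of the 4 PIAS genes, 0 changed against PBS by limma with any cytokine, and 0 had unadjusted p under 0.05. Of 8 phosphatases of JAK and STAT proteins, 7 were tested, and 0 changed with mLIF (1 at an unadjusted p under 0.05). Ptpn1, which encodes the JAK2 and TYK2 phosphatase PTP1B, was the 1 gene that rose with mOSM. It had 183, 198 and 204 normalized counts with PBS and 254, 270 and 272 with mOSM, a change of 0.44 (SE 0.08, limma adjusted p 0.000103). With hlOSM 2 rose, Ptpn1 by 0.33 (adjusted p 0.00164) and Ptpn2, encoding a phosphatase of JAK1 and STAT proteins, by 0.27 (adjusted p 0.00271). Median changes of the 7 were −0.06, 0.12 and 0.12 for mLIF, mOSM and hlOSM, and over all tested genes the median lay within 0.01 of 0 each time.

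Of 8 adapters that link SHP2 to the ERK branch, 0 changed with mLIF (1 at an unadjusted p under 0.05). With mOSM 2 rose and 2 fell (15.4% and 15.8% of all tested genes), and with hlOSM 3 rose and 2 fell (18.2% and 19.8%). Gab1 and Gab2, docking proteins that bind SHP2, moved in opposite directions. Gab1 had 266, 277 and 305 normalized counts with PBS and 186, 183 and 205 with hlOSM, a change of −0.56 (SE 0.07, limma adjusted p 2.22e-06). Gab2 had 285, 297 and 227 with PBS and 352, 358 and 447 with hlOSM, a change of 0.52 (SE 0.09, adjusted p 0.000125). The PBS and hlOSM libraries did not overlap for either gene, while the mOSM and hlOSM ranges overlapped for both. Shc1 rose with both OSM forms and Grb2 with hlOSM. Sos1, a Ras exchange factor, fell with both, by 0.16 with mOSM (adjusted p 0.0403, and 0.0775 when the replicate number was a block) and by 0.18 with hlOSM (adjusted p 0.0228).

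Of 8 partners in the ubiquitin ligase of the SOCS box, 0 changed with mLIF by limma (3 at an unadjusted p under 0.05). Eloc, encoding elongin C, was the 1 gene that rose with mOSM, by 0.22 (limma adjusted p 0.0384, and 0.0854 when the replicate number was a block). With hlOSM 2 rose, Eloc by 0.29 (adjusted p 0.00601) and Ube2f by 0.22 (adjusted p 0.034, and 0.0634 with the block). Beside 15.4% and 18.2% of all tested genes that rose, these counts are no result about the list. Of 8 other SOCS box proteins, 0 changed with mLIF (3 at an unadjusted p under 0.05) and 1 rose with each OSM form, no more than the share of all tested genes. It was Rab40c, with 0.52 for mOSM (adjusted p 0.00496) and 0.41 for hlOSM (adjusted p 0.02, and 0.0553 with the block).

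Upstream of the inhibitors, 13 of 14 receptors, kinases and STAT genes were tested. After mLIF 3 rose and 0 fell (2 and 0 when the replicate number was a block), beside 5.47% and 4.44% of all tested genes. After mOSM 6 rose and 1 fell, beside 15.4% and 15.8%, and after hlOSM 6 rose and 0 fell, beside 18.2% and 19.8%. Osmr, the OSM receptor, had 762, 735 and 560 normalized counts with PBS, 1047, 980 and 1061 after mLIF, 1264, 1323 and 1391 after mOSM, and 1264, 1321 and 1732 after hlOSM. Its changes were 0.60 (limma adjusted p 0.000576), 0.96 (adjusted p 1.24e-07) and 1.07 (adjusted p 1.87e-08). Stat3 rose by 0.19 after mLIF (adjusted p 0.028, and 0.0528 when the replicate number was a block), 0.35 after mOSM (adjusted p 3.75e-05) and 0.35 after hlOSM (adjusted p 2.23e-05). Jak3 rose with each cytokine and Il6st, which encodes gp130, Jak2 and Stat5a with both OSM forms. Stat5b fell by 0.24 with mOSM (adjusted p 0.00722).

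Of 20 known STAT3 target genes, 19 were tested. The numbers that rose and fell were 8 and 1 for mLIF (all tested genes 5.47% and 4.44%), 12 and 2 for mOSM (15.4% and 15.8%), and 12 and 5 for hlOSM (18.2% and 19.8%). Their medians were 0.17, 0.45 and 0.48 on the log2 scale. Because this list was chosen with earlier results of these data known, its counts and medians do not test for a STAT3 response. Bcl3, Cebpd, Fgl2, Il4ra, Lcn2, Myc, Socs3 and Timp1 rose with each cytokine. Vegfa fell with each, Ccnd1 with both OSM forms, and Fos, Irf1 and Pim1 with hlOSM. Lcn2 was close to the floor, with normalized counts of 3, 5 and 1 with PBS and 10, 8 and 13 after mLIF. PBS replicate 3 was the highest PBS library for Vegfa (461, 442 and 589) and Pim1 (153, 147 and 193). It was the lowest for Cebpd (90, 85 and 50) and Timp1 (98, 87 and 68). Leaving out single libraries was run only for the 9 tested genes of the group described here. Fgl2, which encodes a fibrinogen-like protein, was the other gene of this list past the threshold in the interaction, at −0.88 (SE 0.11, limma adjusted p 0.00024). It had 377, 341 and 304 normalized counts with PBS, 617, 658 and 735 after mLIF, 782, 819 and 789 after mOSM, and 817, 799 and 948 after hlOSM.

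Of 10 known STAT5 target genes, 8 were tested, and 3 of these, Cish, Socs2 and Socs3, belong to the group described here. For mLIF 1 rose and 0 fell (all tested genes 5.47% and 4.44%), for mOSM 2 rose and 2 fell (15.4% and 15.8%), and for hlOSM 2 rose and 5 fell (18.2% and 19.8%). Their medians were −0.07, −0.15 and −0.25. This list, too, was chosen with earlier results of these data known. Socs3 and the survival gene Bcl2l1 rose with both OSM forms, and both are also on the STAT3 list. Bcl6, Ccnd1, Cish, Igf1 and Pim1 fell with hlOSM, and Ccnd1 and Pim1 are on the STAT3 list too. Igf1 had 52, 63 and 68 normalized counts with PBS and 33, 21 and 27 with hlOSM, a change of −1.16 (SE 0.17, limma adjusted p 8.22e-06).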

How the data were processed

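The authors aligned reads to mm10 with STAR 2.7.7a, counted them per gene with featureCounts 1.6.5, normalized the counts and rounded them. The deposited values were treated as a score on a normalized count scale, since the normalization is not given in the sources used here, and no read-count model was applied. Conditions and replicate numbers came from the sample titles, and replicate numbers differed by nearly the same factor from gene to gene. limma 3.58.1 in R 4.3.3 was run on log2(value + 1), with a fit of all 4 conditions, a mean-variance trend, two-sided tests and Benjamini-Hochberg adjustment over 13184 genes. The 7 comparisons were each cytokine against PBS, the cytokines against each other, and the interaction. The procedure was tested on simulated data. All 10 genes and the fixed lists could be named. The members and lists were chosen with earlier results of these data known. Exonic lengths came from GENCODE M21 and promoters from RefSeq (GRCm38.p6). Alternatives were other pseudocounts, filters, scalings, variance settings and thresholds, a fit of the conditions compared alone, a replicate block, and each library left out in turn.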

Additional observations from a re-analysis of the deposited data

Results flagged for a closer look

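The interaction of Socs3 was singled out because the step from mOSM to hlOSM differed from that from PBS to mLIF by a test of the difference itself, at −0.92 on the log2 scale (limma adjusted p 0.00024). With each library left out in turn it lay between −0.98 and −0.83, with adjusted p up to 0.0019. The call was lost without the mean-variance trend and on values without log transformation. The difference of Socs3 between hlOSM and mOSM was 0.09 and its change with mLIF was 1.00. Most of the interaction is therefore the mLIF change with its sign reversed. It compares ligands, since no condition combined mOSM with mLIF.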

How the results depend on the processing

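Over 25 alternatives, 1505 values of single genes were recomputed. Of these, 1484 kept their side of the threshold, 20 were no longer past it, 1 was newly past it and 0 called values reversed. Socs3 against PBS, and with mOSM or hlOSM against mLIF, passed in every alternative run for it. With hlOSM against PBS, where 4 genes passed, 2 did so without the mean-variance trend, 1 at an adjusted p under 0.01, 1 at a minimum of 1.5-fold, and between 1 (without hlOSM replicate 2) and 4 with a library left out; without PBS replicate 3 it was 2. With mLIF against PBS, where 1 gene passed, 2 did so in a fit of only the groups compared, Socs7 being the added gene. In the interaction, where 1 gene passed, 0 did so without the trend and 0 on values without log transformation, an alternative chosen after seeing the data. The cause was not tested. With the replicate block, 3 genes passed with hlOSM against PBS, Socs4 being lost, and no other call among the 9 genes changed; the counts were 1 with mLIF, 1 with mOSM and 1 in the interaction, and 0 for hlOSM against mOSM. Whether equal numbers pair libraries could not be checked. The correlations of same-numbered libraries ran from −0.518 to 0.0221, and 17 of 18 were negative. Averaged over the conditions, however, the log2 difference between numbers 3 and 1 hardly varied from gene to gene (SD 0.0019 over 6626 genes). This holds the mean of such correlations below 0 whether or not numbers pair libraries.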
